A study of Mus musculus with 2 samples.

Results

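The platelet-derived growth factor (PDGF) genes were read here in cultured mouse pericytes: the ligands Pdgfa, Pdgfb, Pdgfc and Pdgfd and the receptors Pdgfra and Pdgfrb. Probes were chosen by gene alone, as every non-control probe whose RefSeq accession belongs to one of these 6 genes, and no measured value entered the choice. They gave 8 probes and 17 spots, of 55681 probes and 59305 gene spots on the array. The 6 genes stand among 20887 genes named on it, and all 6 had a probe well above background on both arrays.

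The cells were primary pericytes of C57BL/6 mice, taken from the corpus cavernosum of the penis. The medium, shared by both groups, held 20% serum and human PEDF (pigment epithelium-derived factor) at 10 nM. Glucose was normal (5 mmol in the labels, with no volume given) or high (30 mmol) during an exposure of 72 h. Each condition is a pool of RNA from 3 samples on a single 1-colour Agilent array, so no difference below has a replicate check and no p-value is given. The animals' age is not given in the sources used here, and no osmotic control is used here.

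PDGFs are paired chains that bind and pair receptor tyrosine kinases at the cell surface. Chains A and B are cut inside the cell before release, while C and D are secreted with a blocking CUB domain that proteases outside the cell remove. The alpha receptor binds A, B and C chains, and the beta receptor binds B and D chains. In small vessels, endothelial cells release the B chain and pericytes carry the beta receptor, and this pairing recruits pericytes to the vessel wall. Serum itself carries PDGF released by platelets.

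Start regions were available from RefSeq (build GRCm38.p6) for 4 of the 6 genes, and those of 2 ligands are shown because each held a classical promoter motif. The first is the 250 bases before the upstream one of 2 listed starts of Pdgfa, chr5:138994945-138995194 on the minus strand. The second is the 127 bases before the first start of Pdgfd, chr9:6168236-6168362 on the plus strand. Both are written 5′ to 3′, with capitals on motif matches.
Pdgfa: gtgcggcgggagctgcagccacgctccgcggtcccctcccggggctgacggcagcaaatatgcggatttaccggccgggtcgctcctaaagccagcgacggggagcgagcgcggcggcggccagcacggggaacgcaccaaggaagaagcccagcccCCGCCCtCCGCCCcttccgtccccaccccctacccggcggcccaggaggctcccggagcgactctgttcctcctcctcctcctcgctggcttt
Pdgfd: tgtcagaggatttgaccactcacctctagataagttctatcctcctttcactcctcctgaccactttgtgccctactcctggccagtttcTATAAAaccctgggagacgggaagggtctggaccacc
The Pdgfa stretch held 2 GC boxes (GGGCGG on either strand, here read as CCGCCC) and 28 CpG dinucleotides, and its GC content was 72.4%. The Pdgfd stretch held 1 TATA box (TATAAA on either strand) and 1 CpG, with a GC content of 51.2%. The window of the other Pdgfa start, chr5:138994282-138994531, held 1 GC box and 19 CpG at a GC content of 66.4%. Motifs were searched in the 250 bases before each listed start, which for Pdgfd run on past the 127 bases shown; its GC content and CpG count are of those 127 bases alone. Over 32851 such start regions the median GC content was 52.4%, 32.74% held a GC box and 12.37% a TATA box. The E box CACGTG, which the carbohydrate response element carries in 2 often imperfect copies, was in none of the windows of Pdgfa, Pdgfd, Pdgfc and Pdgfra, and in 6.02% of all start regions. The CCAAT box was in none of these either, against 33.85% of all. None of these motifs overlaps another in the stretches shown, and a match here is a description of letters only.

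The arrays shared a slide and a scan. Spots well above background made up 56.3% of 59305 gene spots on the normal glucose array and 57.6% on the other, and none was saturated. The number of arrays limits the precision. Signals were somewhat lower on the high glucose array: its 75th percentile over probes was 732.7 against 774.4, so log2 signals were centred on that percentile, which adds 0.08 to every log2 ratio of high over normal glucose. Unless called unscaled, a log2 ratio here is the centred one. The median over 14176 named genes well above background on both arrays was -0.007 with this scaling and -0.087 without it. Gapdh had a log2 ratio of 0.00 and Actb 0.05. The RNA comes from whole cultures, so fewer cells of a type and less RNA per cell cannot be told apart.

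No PDGF gene differed by 1.2-fold between the pools. The 6 log2 ratios ran from -0.091 for Pdgfb to 0.136 for Pdgfrb, with a median of -0.033. A difference of at least 1.2-fold was seen in 12.3% of the 14176 genes, 6.8% higher and 5.51% lower, and of at least 2-fold in 0.917%, 0.501% higher and 0.416% lower. The 1.2-fold count was 964 higher and 781 lower, and it became 641 higher and 1373 lower without scaling and 711 higher and 1192 lower with each array centred on its median. By sign, Pdgfa and Pdgfrb were higher and the other 4 lower, against 46.8% higher and 53.2% lower over all genes. In unscaled signals 5 of the 6 were lower, where 77.1% of all genes were. The plot of every spot shows how close the arrays lie at each probe.

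**Figure D1:**
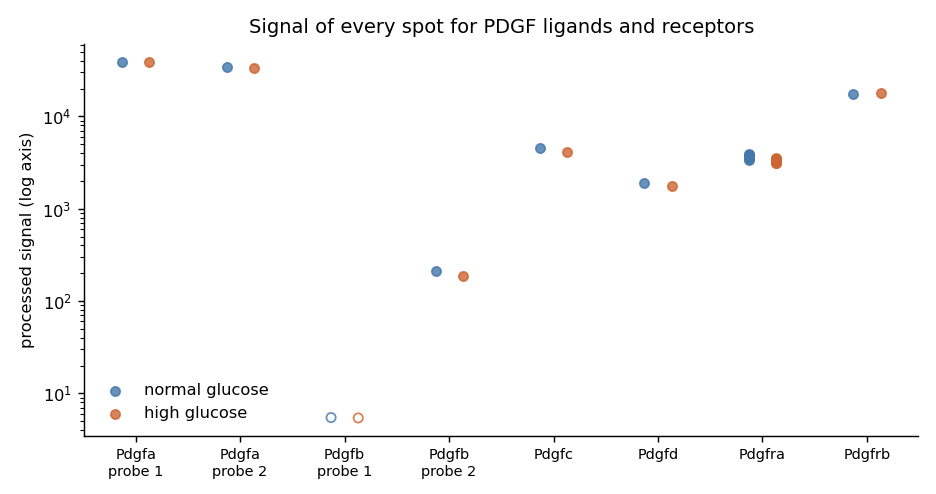
Processed signal (log axis) of every spot of the 8 probes, normal glucose in blue and high glucose in orange; open circles are not well above background on either array. Each pair lies close together, including the 10 Pdgfra spots, and Pdgfb probe 1 sits near 5 on both arrays.

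Among the ligands, Pdgfa encodes the A chain, which signals through the alpha receptor. Probe A_55_P2007470 read 39109 in normal and 38508 in high glucose, a log2 ratio of 0.058. Probe A_55_P2125588 read 34743 and 33469, a ratio of 0.026. Both Pdgfa processed signals were slightly lower in high glucose before scaling and slightly higher after it. The median pixel signal of the first probe was higher without any scaling, at 34450 and 35167, so the sign turns on the scaling and on which signal is read. The log2 ratios of the 2 probes lay about as far apart as the median spot error of their signal band, 0.032.

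That error comes from probes printed 10 times on each array. Over 275 such probes well above background, the SD of a spot's log2 ratio had a median of 0.252 for signals up to 128, of 0.102 between 128 and 512, of 0.044 between 512 and 4096, and of 0.032 beyond 4096. It holds spot noise only, with neither the difference between cultures nor that between probes of a gene. Pairs of measured probes of one gene in the same band differed in log2 ratio by a median of 0.143 (256 genes, the band from 128), 0.075 (629 genes, from 512) and 0.042 (626 genes, from 4096).

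Pdgfb encodes the B chain, the ligand that vessel lining cells release toward pericytes. Probe A_55_P2047310 read 209.7 in normal and 186.2 in high glucose. Its log2 ratio was -0.091, or -0.171 unscaled, which is less than the spot error of 0.102 in its band once scaled. The other probe, A_55_P1974441, read 5.46 and 5.41, on neither array well above background, so it gives no ratio. The probes of Pdgfb thus disagree on whether the transcript was detected, and which stretch of it each reads is not given in the sources used here.

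The dim Pdgfb signal was set against the 308 negative control spots of each array, whose median was 6.04 in normal and 5.37 in high glucose. Their highest signals were 170.1 and 113.8, and 7 and 8 of them were marked well above background. The brighter Pdgfb probe lay above all of them on both arrays, and the other at about their median.

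Endothelial cells are a known source of the B chain, and 9 of 18 endothelial markers were measured. The unscaled signals of all 18 summed to 14505 in normal and 13813 in high glucose, from arrays with 75th percentiles of 774.4 and 732.7. Most of the sum came from Kdr (a VEGF receptor, 7379 in normal glucose) and Egfl7 (4996). The junction cadherin Cdh5 read 14.4 and 25.6, on neither array well above background, and the same held for Tek, Tie1, Emcn, Cldn5, Erg, Robo4, Sox17 and Sox18. Pecam1, the platelet and endothelial adhesion molecule, read 82.9 and 85.1, below the brightest negative control spot. Platelets carry PDGF too, and of 8 platelet and megakaryocyte markers 5 were measured. Among them Pf4 read 97.9 and 84.9, also below the brightest negative control spot on each array. The part of these cells in the Pdgfb signal was not tested.

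Pdgfc encodes a ligand of the alpha receptor that needs removal of its CUB domain. Its single probe read 4536 in normal and 4169 in high glucose, a log2 ratio of -0.042, or -0.122 unscaled. Pdgfd encodes the other CUB domain ligand, which acts on the beta receptor. Its single probe read 1895 and 1762, a log2 ratio of -0.025, or -0.105 unscaled. Both were lower in high glucose on either scale. With scaling, Pdgfc was lower by slightly more than the spot error of its band and Pdgfd by less than the 0.044 of its own, and unscaled both were lower by more than that error.

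Pdgfra, the alpha receptor, was the best measured of the 6, since its probe A_51_P345649 was printed 10 times across the array. In normal glucose its spots ran from 3338 through a median of 3680 to 3932. In high glucose they ran from 3111 through 3313 to 3528. Each of the 10 spots was lower in high glucose than the spot at the same place on the other array, and 6 of the high glucose spots lay below every normal glucose spot, so the ranges overlap.

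The mean over spots was 3678 ± 181 in normal glucose and 3314 ± 138 in high (SD over 10 spots of 1 array each). The scaled log2 ratio averaged -0.070 with an SD of 0.033 over the spots and ran from -0.125 to -0.022. Unscaled it ran from -0.204 to -0.102. All 10 spots were also lower after scaling for 18.2% of the 275 probes printed 10 times, all 10 higher for 17.5%, and all 10 lower unscaled for 49.5%. A ratio of one sign in every spot was therefore common on these arrays, and repeat spots share the same pool of RNA.

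**Figure D2:**
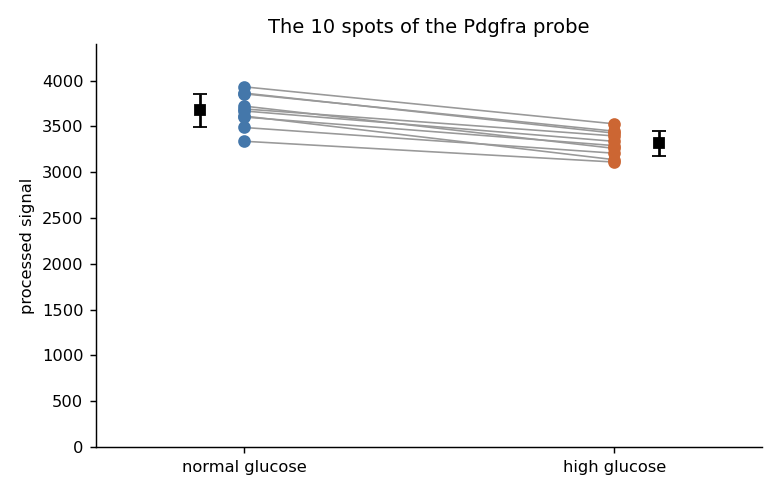
Processed signal of the 10 spots of the Pdgfra probe on each array; lines join spots at the same place and black squares give the mean with the SD over spots. Every line slopes down toward high glucose, from a mean of 3678 to 3314, and the ranges overlap.

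The same 10 spots show what the scanner software did to the signal. Their median pixel signals varied with place, with a coefficient of variation of 14.6% in normal and 13.5% in high glucose. The processed signals varied by 4.92% and 4.16%. The log2 processed signals of a spot still went together on the 2 arrays (Pearson r = 0.89 over 10 spots that share their places), so a ratio taken spot by spot had a smaller SD, 0.033, than the log2 signals themselves, 0.072 and 0.060. Neighbouring spots within 3 rows and columns that were well above background had median log2 ratios between -0.019 and 0.100, none as low as the Pdgfra mean.

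Pdgfrb, the beta receptor and a standard marker of pericytes, had the largest ratio of the 6 and the only one above 0 in unscaled signals. Its single spot, of probe A_55_P1957249, read 17471 in normal and 18161 in high glucose. The log2 ratio was 0.136, or 0.056 unscaled, and its 23 neighbours well above background had a median of 0.012. It is 4.24 times the spot error of its band. The central 90% of the 4711 genes in that band ran from -0.142 to 0.148, and Pdgfrb lay inside that range. From median pixels less local background the ratio was smaller, at 0.085.

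The scanner software gives an error of its own with each signal, for Pdgfrb 1747 in normal and 1816 in high glucose. Combined over both arrays it comes to 0.204 on the log2 scale for every bright PDGF spot and 0.211 for the dimmer Pdgfb. Every one of the 6 log2 ratios was smaller than this.

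**Figure D3:**
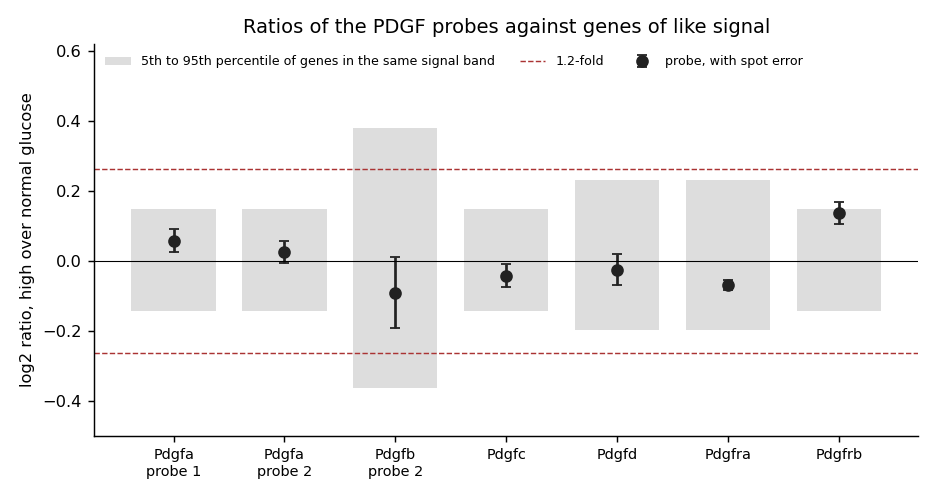
Log2 ratio of high over normal glucose for the 7 PDGF probes measured on both arrays. Bars give the spot error of the signal band, divided by the square root of 10 for Pdgfra; grey boxes span the central 90% of genes in that band and dashed lines mark 1.2-fold. All 7 lie inside their boxes and between the dashed lines, with Pdgfrb at 0.136 nearest to an edge.

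The log2 ratios of the receptors differed by a small amount that scaling of whole arrays cannot set. The log2 ratio of Pdgfrb exceeded that of Pdgfra by 0.206, or 1.15-fold. For comparison, the SD of the log2 ratio over all genes was 0.241. The software error of the Pdgfrb spot alone was 0.204. How common such a gap is between genes of like signal was not tested. The difference was between 0.203 and 0.212 with quantile or cyclic loess normalization, and 0.159 and 0.156 where median pixels or normexp replaced the processed signal. Pdgfrb exceeded the ligands by 0.078 for Pdgfa, 0.227 for Pdgfb, 0.177 for Pdgfc and 0.161 for Pdgfd. The pair rests on 1 spot for Pdgfrb, and no replicate array bears on it.

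**Figure D4:**
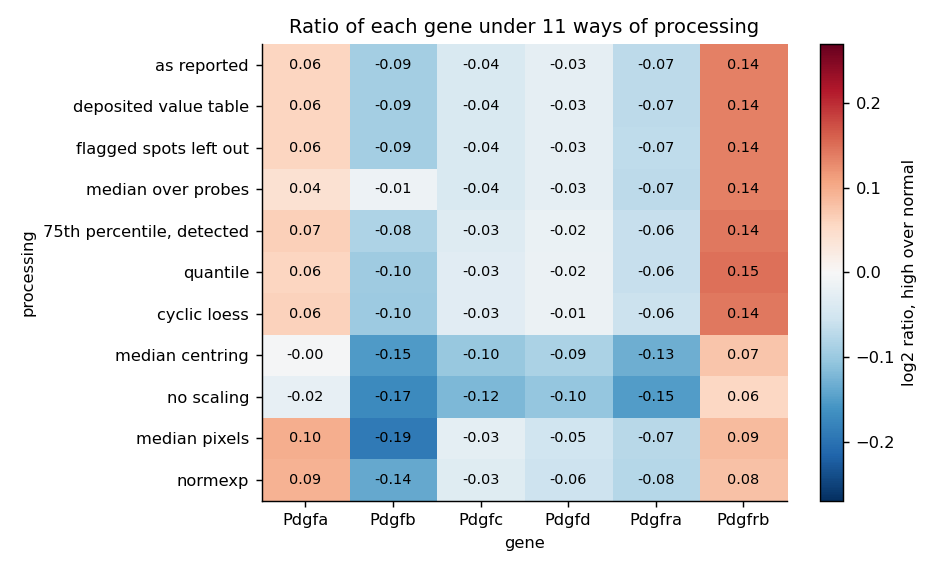
Log2 ratio of high over normal glucose for each gene (columns) under 11 ways of processing (rows), with the value in each cell. Pdgfrb is above 0 and Pdgfb, Pdgfc, Pdgfd and Pdgfra are below 0 in all 11, and Pdgfa turns below 0 with median centring and with no scaling.

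Around the PDGF genes, 5 lists of pathway genes held 106 measured genes. Of these 8, or 7.55%, differed by at least 1.2-fold, against 12.3% of all genes, and none by 2-fold. The 2 shares were not matched for signal, and genes past 1.2-fold were mostly dim. Among genes brighter than the median gene 146 were higher and 76 lower, of 964 and 781 over all genes. Of the 14 measured genes that activate or bind the ligands, none passed 1.2-fold by its brightest probe. The probes of Hspg2, a matrix proteoglycan, disagreed, with 0.048 for the brighter one and -0.363 for the other. With the median over all probes of a gene, 10 of the 106 passed 1.2-fold. By brightest probe, the median log2 ratio of the 14 genes that activate or bind the ligands was -0.028. Of these 6 were higher and 8 lower, where 53.2% of all genes were lower. Furin, the protease that cuts A and B chains, had -0.043, and Plat and Plau, the plasminogen activators that free C and D chains, -0.013 and -0.144. The largest ratios were -0.205 for Cspg4 (NG2, a pericyte proteoglycan that binds the A chain), 0.175 for Pdgfrl, a receptor-like protein without a kinase, and -0.175 for Dcbld2. Plat, Plau and Furin are named for their roles, after their values were seen.

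Receptor signalling genes were centred on 0, with a median of 0.007. Of 36, 19 were higher and 17 lower, where 46.8% of all genes were higher. Those past 1.2-fold numbered 3, all of them dim, where 12.3% of all genes passed it. The receptor-bound kinase Src read 91.3 in normal and 71.1 in high glucose, a log2 ratio of -0.281, and its relative Yes1 read 138 and 158 (0.279). Among brighter members, Ptpn11 (the phosphatase SHP2) had 0.059, the adaptor Shc1 0.089 and the kinase Akt1 -0.026. Its relative Akt2 read 15861 and 16895 by its brightest probe, a log2 ratio of 0.171, above the central 90% of genes in its band. The 2 other measured probes of Akt2 disagreed in sign, so that ratio rests on the probe chosen. The kinase Prkca had 0.119. These 5 were picked after their values were seen.

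Of 23 measured brakes on signalling, 8 were higher and 15 lower, where 53.2% of all genes were lower. Their median was -0.016. Only 1 passed 1.2-fold, where 12.3% of all genes did. Socs3, an inhibitor of cytokine and receptor signalling, read 2660 in normal and 3824 in high glucose, a log2 ratio of 0.603. Dusp1, a phosphatase of MAP kinases, had 0.222 and the Ras brake Nf1 -0.203. The feedback inhibitors Spry1 and Dusp6, chosen after their values were seen, had -0.025 and -0.078.

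Genes that growth factors induce had a median of -0.032, with 10 of 23 higher, where 46.8% of all genes were. The chemokines Ccl2, first found as a PDGF-induced gene in fibroblasts, and Ccl7 were among the 3 genes higher by 1.2-fold. Over all genes, 6.8% were higher by that much and 5.51% lower. Ccl2, printed 10 times, read 28735 in normal and 33864 in high glucose, a log2 ratio of 0.317. Ccl7 read 25299 and 30522 (0.351). The stress response gene Ier3 read 4652 and 5753 (0.387). Cxcl1, another chemokine, was lower by 1.2-fold from dim signals of 58.2 and 43.8 (-0.330). The classical targets Fos, Egr1 and Myc had 0.015, -0.061 and -0.035, and these and Ccl2 were chosen after their values were seen.

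The nearest relatives of the PDGF receptors and ligands did not pass 1.2-fold either, with 0 of 10 measured genes past it. Over all genes 12.3% passed it. The median of the 10 was 0.047. Pgf, placental growth factor, had 0.184, Vegfc 0.168 and Vegfa -0.149. Csf1r, a kinase of the same receptor class, had 0.122 and its ligand Csf1 -0.059, both named after their values were seen. The 2 other measured probes of Csf1r disagreed in sign, with 0.032 and -0.135. Kit and Flt3, the other receptors of the class, were not well above background on both arrays. The median of this list was -0.014 with median centring and -0.033 with no scaling. That of the signalling genes was also below 0 with these and with median pixels and normexp.

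**Figure D5:**
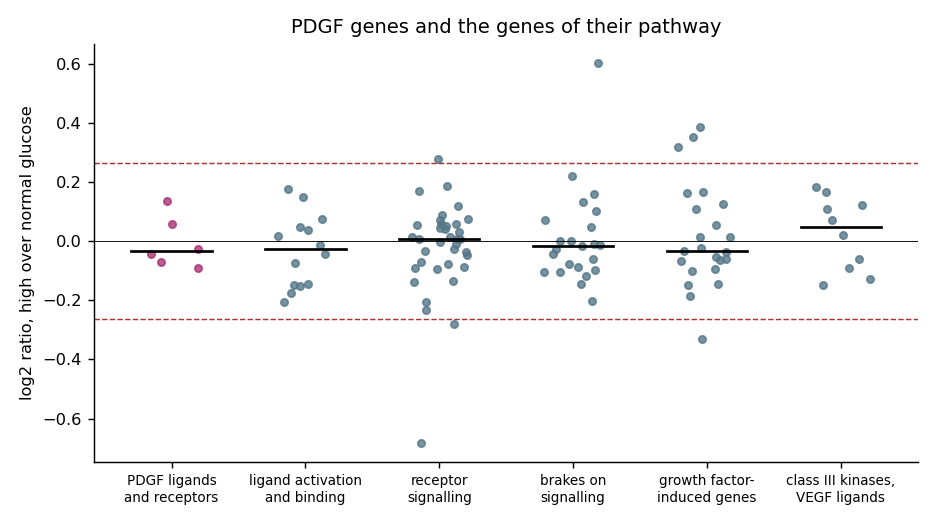
Log2 ratio of high over normal glucose for the 6 PDGF genes (purple) and for measured genes of 5 pathway lists (blue-grey); short black lines are medians and dashed lines mark 1.2-fold. The PDGF genes lie between the dashed lines, and the highest point is Socs3 at 0.603.

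The PDGF receptors also mark cell types, Pdgfrb pericytes and Pdgfra fibroblasts. Of 22 other pericyte markers 20 were measured, with a median log2 ratio of -0.088. Of these 7 were higher and 13 lower, where 53.2% of all genes were lower. Cspg4 had -0.205 and Anpep (CD13) -0.139, while Rgs5 had 0.581 from signals of 93.9 and 133. The potassium channel gene Kcnj8 read 13.4 and 9.8, too close to background for a ratio. The summed unscaled signal of the list was 164320 in normal and 147103 in high glucose.

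Of 17 other fibroblast markers 13 were measured, with a median of -0.064 and 9 lower, where 53.2% of all genes were lower. The matrix proteoglycan Dcn read 84384 in normal and 70621 in high glucose (-0.177). In unscaled signals the list summed to 1261544 in normal and 1203388 in high glucose, from arrays with 75th percentiles of 774.4 and 732.7. All 12 measured of 14 smooth muscle markers had a ratio above 0 with this scaling, where 46.8% of all genes did. In unscaled signals 7 of them did, where 22.9% of all genes did. Their scaled median was 0.102, with Acta2, smooth muscle actin, at 0.025. Of 16 immune markers 14 were measured, 11 higher and 3 lower with a median of 0.094, beside the same 46.8% higher over all genes. In unscaled signals the immune list summed to 32431 in normal and 33384 in high glucose. Most of that sum was from the integrin chain Itgam, at 21959 and 22557 (0.119), whose other measured probes had ratios below 0. The myeloid genes Tyrobp (2309 in normal glucose), Cd14 (1931), Lyz2 (1703) and Fcer1g (1355) were also bright, while the leukocyte marker Ptprc read 39.1 and 42.5. Cd74, a chaperone of antigen presentation, read 89.2 and 27.9 (-1.596), the only gene of the list past 2-fold. Ptprc and Cd74 both lay below the brightest negative control spot on each array. These immune genes are named after their values were seen. Some markers of pericytes, smooth muscle, fibroblasts, immune cells, endothelial cells and platelets were thus measured on both arrays. The part of these cell types in the receptor ratios was not tested.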

How the data were processed

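RNA of 2 pools was read on 1 array each. The deposited intensity values come, per the file headers, from Feature Extraction 11.5.1.1, while the submitters' processing notes name version 9.3.2.1. The processed signal has background subtracted, is detrended within the array and is not scaled between arrays. Its log2 was averaged over spots of a probe and centred on each array's 75th percentile over probes. Probes were named through RefSeq accessions without versions (table of GRCm38.p6). Of 55681 probes, 27509 matched 1 symbol and 28172 none; the latter stay unnamed here. A gene's probe with the highest mean level stood for it. Detection of a probe (well above background) asked for the scanner flag in a share of 0.5 or more of its spots. Normalizations used limma 3.58.1 in R 4.3.3, and counting was tested on simulated data. No test across genes was run. The PDGF genes were named whatever their values, and in each pathway list the 3 largest measured ratios, of which 1 is not reported here. The genes and lists were chosen with earlier results of these data known.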

Additional observations from a re-analysis of the deposited data

How the results depend on the processing

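The signs of Pdgfb, Pdgfc, Pdgfd, Pdgfra (all lower) and Pdgfrb (higher) were the same under all 11 ways of processing, and no PDGF gene reached 1.2-fold under any. Pdgfa was higher under 9 and lower under 2. The 11 are not independent checks. The deposited values of single-spot probes are the same processed signals, and no PDGF spot was flagged as an outlier. A median over probes cannot change a gene with a single probe, and scaling of whole arrays moves all genes by the same amount. A value counted as shifted when it moved by at least the spot error of its band. With median centring the log2 ratios were -0.003 for Pdgfa, -0.102 for Pdgfc, -0.086 for Pdgfd, -0.131 for Pdgfra and 0.075 for Pdgfrb. With no scaling they were -0.022, -0.122, -0.105, -0.15 and 0.056 in the same order. With median pixels less local background Pdgfa had 0.099 and Pdgfrb 0.085, and with normexp 0.093 and 0.079. Pdgfb ran from -0.191 to -0.013, the latter with its undetected probe included. Counts of all genes moved more. Past 2-fold, 666 were higher and 606 lower with no filter on dim probes, 4 and 2 among genes brighter than the median gene, and 20 and 18 with normexp. Past 1.2-fold the same settings gave 2303 and 2052, 146 and 76, and 553 and 475. Without scaling 641 were higher and 1373 lower, and with median centring 1192 were lower. Normexp on the mean spot signal was planned and not run; normexp on median pixels with an offset of 50, and no scaling, were added after the data were seen. No paired analysis was possible because each condition has 1 array. Depth of signal limits Pdgfb most, where a single spot carries an error of 0.102.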

Other observations

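Some genes near the PDGF pathway were well above background on 1 array only, which gives a bound in place of a ratio. Sla, an adaptor known to dampen PDGF receptor signalling, read 7.4 in normal and 170.7 in high glucose, at least 6.72-fold higher. Flt3, a receptor of the same kinase class, read 90.0 and 5.2, at least 3.55-fold lower in high glucose. Each bound sets the bright signal against a floor, the lowest spot signal well above background on the other array, after scaling between the arrays. Before scaling those floors were 26.9 in normal and 24.0 in high glucose. The flag is set for each spot, so a floor is not a strict limit. Each bound rests on 1 spot, and negative control spots reached 170.1 in normal and 113.8 in high glucose. The Flt3 signal of 90.0 lay below the brightest of them on its array. Kit was marked well above background in high glucose only, with mean signals of 15.5 and 16.5 over 2 spots, which lie under those floors and give no fold. These 3 genes were singled out after their values were seen.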
